A study of Mus musculus with 8 samples.

Results

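The genes examined here are 9 genes of the transforming growth factor beta (TGF-beta) family and its signaling pathway: the ligand genes Tgfb1 and Inhba, the receptor genes Tgfbr1 and Tgfbr2, the signal transducer Smad3, its inhibitor Smad7, and the response genes Tgfbi, Id1 and Id3. They were picked by symbol from a table of 55801 genes, each symbol matched 1 row, and all 9 were among the 12189 genes that passed the filter for testing, a mean of at least 1 TPM (a level scaled for gene length and for the sum of each sample). RNA was measured in peritoneal macrophages of male C57BL/6 mice aged 6 to 8 weeks, which had received thioglycollate, an irritant that draws macrophages into the abdominal cavity, 72 h before the cells were taken. NC cells received the vehicle DMSO, LPS cells the vehicle and then lipopolysaccharide (LPS, from the outer membrane of Gram-negative bacteria) at 100 ng/ml for 4 h, C498 cells the small molecule C498 at 15 µM, and C498+LPS cells C498 for 0.5 h and then LPS in the same way. Each group had 2 samples, 8 in all, and the labels do not say whether these came from separate mice or cultures, so the p-values measure only the spread between these samples, which may be technical.

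TGF-beta 1 is secreted in a latent form, held by binding proteins and by the matrix, and acts only once it is released. The active dimer binds TGFBR2, a kinase that then phosphorylates TGFBR1, and TGFBR1 phosphorylates SMAD2 and SMAD3, which enter the nucleus with SMAD4. Activin A, a dimer of the protein that Inhba encodes, signals to the same SMAD proteins through activin receptors, while bone morphogenetic proteins (BMPs) signal through SMAD1, SMAD5 and SMAD9. In macrophages TGF-beta is known for restraining inflammatory responses and for shaping tissue-resident cells.

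The sequences before the starts of a ligand gene that changed, a receptor gene that changed and a ligand gene that did not pass any test are shown so that their base composition can be compared. They are the 250 bases before the RefSeq start on GRCm38.p6, written 5′ to 3′ on the gene's own strand, with matches to the motifs searched in capitals (GGGCGG, the GC box, or its reverse CCGCCC, and TATAAA). Inhba lies at chr13:16011601-16011850 (+), Tgfbr2 at chr9:116175364-116175613 (-) and Tgfb1 at chr7:25686752-25687001 (+).
Inhba: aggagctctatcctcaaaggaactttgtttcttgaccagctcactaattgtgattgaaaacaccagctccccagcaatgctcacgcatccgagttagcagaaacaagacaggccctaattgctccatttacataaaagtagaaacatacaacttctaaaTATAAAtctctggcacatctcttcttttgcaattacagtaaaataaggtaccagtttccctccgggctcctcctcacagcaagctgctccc
Tgfbr2: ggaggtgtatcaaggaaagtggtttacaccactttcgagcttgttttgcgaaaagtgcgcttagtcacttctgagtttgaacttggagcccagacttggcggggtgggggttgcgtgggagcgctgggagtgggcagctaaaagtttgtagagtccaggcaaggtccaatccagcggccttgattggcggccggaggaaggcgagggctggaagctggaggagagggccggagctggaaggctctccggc
Tgfb1: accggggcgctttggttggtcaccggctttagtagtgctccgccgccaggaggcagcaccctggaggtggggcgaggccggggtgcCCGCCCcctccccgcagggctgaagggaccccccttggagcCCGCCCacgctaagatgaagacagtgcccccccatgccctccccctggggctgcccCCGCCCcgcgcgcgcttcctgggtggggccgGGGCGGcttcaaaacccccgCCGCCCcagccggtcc
The Inhba window had a GC content of 43.2%, 3 CpG dinucleotides and a TATAAA from base -91 to -86 relative to the start, a motif found in 12.4% of the 32851 windows of this length. The Tgfb1 window had a GC content of 75.2%, 21 CpG dinucleotides and 5 matches to GGGCGG, which occurs in 32.7% of the windows. The Tgfbr2 window had a GC content of 58.4% and none of the 8 motifs searched, against a median of 52.4% GC and 6 CpG dinucleotides over all windows. The other motifs, each searched on both strands, were GGCGCC (9.59% of the windows), GTCTAGAC (0.167%), CAGACA (17.1%), TGANTCA (6.75%), TGACGTCA (1.55%) and the NF-kappaB motif (3.9%). Of the 9 genes, 7 had a window in the table, and a match is a description of letters, not evidence of a binding site.

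The values are TPM levels, which sum to the same value in each sample, so that read depth is unknown. Changes were tested with limma on log2(TPM + 1) over all 12189 genes, and a gene was called where it changed at least 2-fold with p, adjusted by the Benjamini-Hochberg method, no higher than 0.05. With 2 samples against 2 the smallest p of an exact two-sided permutation test is 0.333, so single genes cannot be tested that way. The NC samples stood apart from each other in long genes: the median log2 difference of replicate 1 over replicate 2 was 0.518 for genes above 4000 bases and -0.118 for genes up to 1000 bases, against 0.0392 and -0.00877 in C498. Over all tested genes the median shifted by -0.17 in LPS vs NC, -0.18 in C498+LPS vs C498, 0.015 in C498 vs NC and 0.0065 in C498+LPS vs LPS on the log2 scale. The macrophage markers Adgre1, Csf1r, Cd68, Itgam, Lyz2, Mertk and Fcgr1 summed to between 10630 and 20350 TPM in every sample. In bulk samples such as these, fewer cells of a type and less RNA per cell cannot be told apart.

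**Figure D1:**
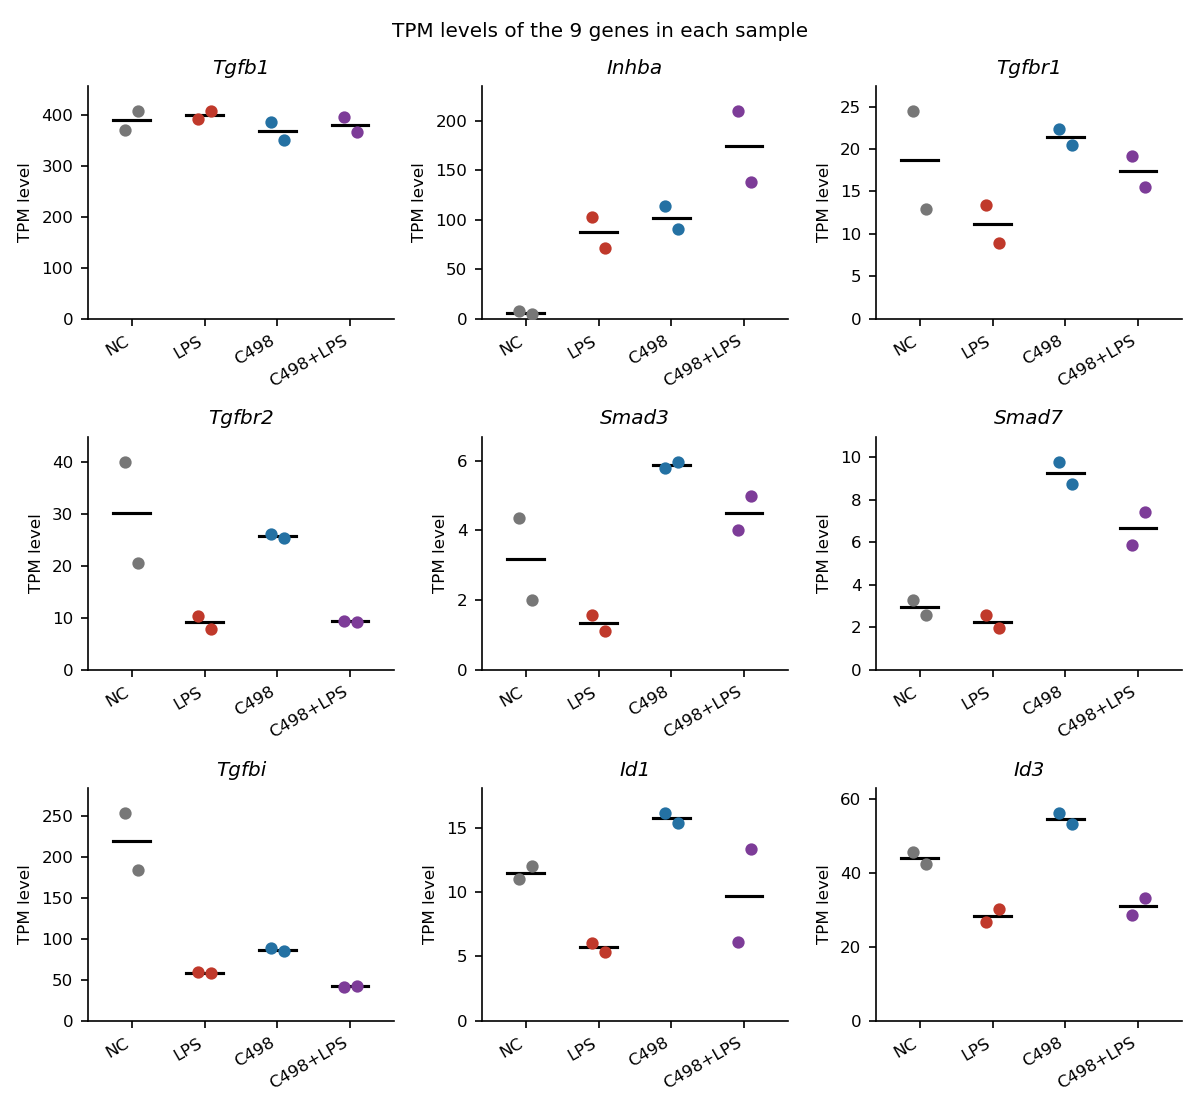
TPM level of each of the 9 genes (vertical axis, from 0, with its own scale per gene) in the 8 samples by group, with points for samples and a line for the mean of the 2 samples. Inhba was below 8 TPM in both NC samples and above 70 TPM in the other 6, while Tgfb1 stayed between 352.2 and 408.9 TPM.

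Of the ligand genes, Tgfb1 was abundant and passed the test in no comparison, and Inhba rose in LPS vs NC and in C498 vs NC. Tgfb1 (ENSMUSG00000002603, GRCm38 chromosome 7 from 25687002 to 25705077) encodes TGF-beta 1, and its mean TPM level was at percentile 96.6 of the tested genes. It was at 372.3 and 408.9 TPM in NC, 393.3 and 407.9 in LPS, 387.8 and 352.2 in C498, and 397.5 and 366.7 in C498+LPS. Both LPS samples were above both C498 samples, and every other pair of groups overlapped. Group means were 390.6 ± 25.9, 400.6 ± 10.3, 370.0 ± 25.2 and 382.1 ± 21.8 TPM in the same order (SD, n = 2 per group here and below). The 4 log2 changes of Tgfb1 lay between -0.078 and 0.047, each with a standard error of 0.0926 (limma, adjusted p from 0.599 to 0.799), and the 95% interval for LPS vs NC ran from -0.18 to 0.26. The sign of that small difference depended on scaling, at 0.21 with median centring and -0.11 with quantile normalization.

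Inhba (ENSMUSG00000041324, chromosome 13 from 16011851 to 16031621) encodes the beta A subunit of activin A and of inhibin A. It was at 7.45 and 4.68 TPM in NC, 102.9 and 71.4 in LPS, 113.3 and 90.1 in C498, and 209.9 and 138.4 in C498+LPS. NC was far below the other groups, LPS and C498 overlapped, and both C498+LPS samples were above all others. Mean levels were 6.065 ± 1.96 TPM in NC and 87.14 ± 22.3 in LPS, a ratio of 14.4 and a log2 change of 3.65 (adjusted p = 0.000174 by limma, standard error 0.285). C498 alone took the mean to 101.7 ± 16.4 TPM, a ratio of 16.8 and a log2 change of 3.88 (adjusted p = 0.000353). C498+LPS reached 174.1 ± 50.6 TPM, with a log2 change of 0.98 over LPS (adjusted p = 0.0571) and 0.75 over C498 (adjusted p = 0.12), neither past the threshold. Under quantile normalization the change over LPS was called, at 1.07 (adjusted p = 0.0203, range over all alternatives 0.0018 to 0.289).

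The response of Inhba to LPS was thus 14.4-fold without C498 and 1.71-fold with it, as ratios of mean TPM levels. As differences of mean TPM levels it was 81.08 TPM without C498 and 72.43 TPM with it, which were not tested against each other. The interaction, the difference between the log2 response to LPS with and without C498, was -2.90 for Inhba (standard error 0.403, 95% interval -3.85 to -1.95, limma adjusted p = 0.0411). Inhba was the 1 gene of the 9 with a called interaction, against 0.468% of all tested genes (0.0738% higher and 0.394% lower). The call was lost when any 1 of the 8 samples was left out, with values from -3.20 to -2.60 and adjusted p from 0.05, just above the threshold before rounding (without NC replicate 1), to 0.257 (without C498 replicate 1), as well as where low genes were kept (adjusted p = 0.129) or the variance trend left out (adjusted p = 0.0991). Over all alternatives the adjusted p ranged from 0.00142 to 0.257. Among the other members the interaction lay between -0.19 for Id3 and 0.83 for Tgfbi (standard error 0.208, adjusted p = 0.197), and that of Tgfbi was called at 1.06 without NC replicate 2 (adjusted p = 0.0282, range over its alternatives 0.0282 to 0.552).

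Of the receptor genes, Tgfbr2 fell in both LPS comparisons and Tgfbr1 passed the test in neither, and the difference between the 2 genes was not tested. Tgfbr2 (ENSMUSG00000032440, chromosome 9 from 116084293 to 116175360, minus strand) encodes the receptor kinase that binds the ligand. It was at 39.95 and 20.44 TPM in NC, 10.34 and 7.77 in LPS, 26.07 and 25.24 in C498, and 9.40 and 9.20 in C498+LPS. Both groups without LPS were above both groups with LPS, the C498 samples lay inside the range of NC and the C498+LPS samples inside the range of LPS. The mean was 30.2 ± 13.8 TPM in NC and 9.055 ± 1.82 in LPS, 3.33 times lower, a log2 change of -1.57 (adjusted p = 0.00705 by limma, standard error 0.289). In cells with C498 it went from 25.66 ± 0.587 to 9.30 ± 0.141 TPM, 2.76 times lower, a log2 change of -1.37 (adjusted p = 0.0213). C498 vs NC gave -0.15 (95% interval -0.83 to 0.53) and C498+LPS vs LPS 0.047 (95% interval -0.63 to 0.73).

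The call of Tgfbr2 in LPS vs NC was lost without LPS replicate 2 (adjusted p = 0.0599) and in a fit of only the groups compared (adjusted p = 0.0662), within a range of 0.00011 to 0.0662. In C498+LPS vs C498 it was lost when any 1 sample of those groups was left out (adjusted p from 0.102 to 0.132) and with no filter (adjusted p = 0.0653), within a range of 0.00112 to 0.132, although the log2 change stayed between -1.45 and -1.10. The sign in C498 vs NC turned with the NC samples, from -0.62 to 0.31 over the samples left out, and centring by gene length took it to -0.55 (adjusted p = 0.018), under 2-fold. Tgfbr2 is 8092 bases long, and its NC replicates differed 1.95-fold.

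Tgfbr1 (ENSMUSG00000007613, chromosome 4 from 47353222 to 47414931) encodes the kinase that passes the signal to the SMAD proteins. It was at 24.50 and 12.94 TPM in NC, 13.34 and 8.93 in LPS, 22.42 and 20.50 in C498, and 19.20 and 15.52 in C498+LPS. The NC pair spanned all other samples except the lower LPS sample, and LPS was below both C498 groups. Its log2 change was -0.66 in LPS vs NC (standard error 0.303, limma adjusted p = 0.147), -0.30 in C498+LPS vs C498 (adjusted p = 0.551), 0.25 in C498 vs NC (adjusted p = 0.605) and 0.61 in C498+LPS vs LPS (adjusted p = 0.221). The first was called without NC replicate 2, at -1.10 (adjusted p = 0.0276, range over its alternatives 0.0276 to 0.537). Tgfbr1 is 5756 bases long and differed 1.89-fold between the NC replicates.

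A ratio of 2 genes within a sample is not changed by a factor common to all genes of that sample, though it can be by quantile normalization or centring by gene length. The ratio of Tgfbr2 to Tgfbr1, chosen after the values were seen and given with no test, was 1.63 and 1.58 in NC, 0.775 and 0.87 in LPS, 1.16 and 1.23 in C498, and 0.49 and 0.593 in C498+LPS. The 4 groups did not overlap, and the NC replicates, which differed nearly 2-fold in each gene, lay close together. The ratio of Inhba to Tgfb1 was 0.02 and 0.0114 in NC, 0.262 and 0.175 in LPS, 0.292 and 0.256 in C498, and 0.528 and 0.377 in C498+LPS. By this measure the activin subunit stayed below Tgfb1 in every sample.

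**Figure D2:**
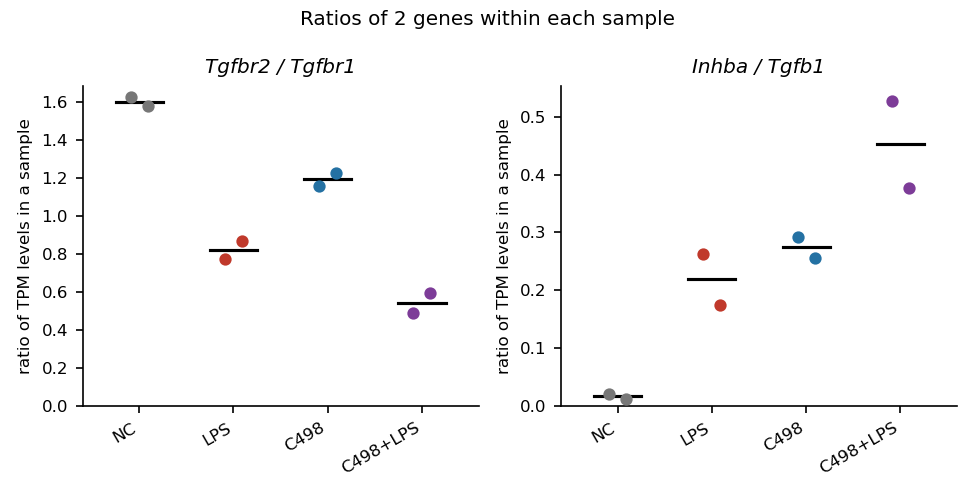
Ratio of the TPM levels of 2 genes within each sample (vertical axis, from 0) by group, Tgfbr2 over Tgfbr1 on the left and Inhba over Tgfb1 on the right, with points for samples and a line for the mean of the 2. Tgfbr2 over Tgfbr1 was above 1 in the NC and C498 samples and below 1 in the 4 LPS-treated samples.

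Of the SMAD genes, Smad7 rose with C498 in both comparisons and Smad3 in C498+LPS vs LPS, and both were low in TPM. Smad3 (ENSMUSG00000032402, chromosome 9 from 63646767 to 63757994, minus strand) encodes a transcription factor that the activated receptor phosphorylates. It was at 4.35 and 1.99 TPM in NC, 1.58 and 1.11 in LPS, 5.79 and 5.97 in C498, and 4.01 and 4.98 in C498+LPS. LPS was the lowest group and C498 the highest, and NC overlapped C498+LPS. C498+LPS was 3.34 times LPS by mean TPM (4.495 ± 0.686 against 1.345 ± 0.332), a log2 change of 1.23 (adjusted p = 0.0322 by limma, standard error 0.300). This call was lost without either LPS sample, either C498 sample or either C498+LPS sample (adjusted p from 0.072 to 0.178) and with no filter (adjusted p = 0.0934), within a range of 0.00792 to 0.178. The change was -0.78 in LPS vs NC (adjusted p = 0.0928) and 0.78 in C498 vs NC (adjusted p = 0.123). Smad3 is 5090 bases long, its NC replicates differed 2.19-fold, and 1 NC sample decided these values: without NC replicate 2 LPS vs NC was called at -1.20 (adjusted p = 0.0148, range 0.0148 to 0.326), and without NC replicate 1 C498 vs NC was called at 1.20 (adjusted p = 0.0186, range 0.0186 to 0.331).

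Smad7 (ENSMUSG00000025880) encodes an inhibitory SMAD that blocks the receptor and is itself induced by TGF-beta. It was at 3.26 and 2.59 TPM in NC, 2.56 and 1.96 in LPS, 9.78 and 8.76 in C498, and 5.88 and 7.43 in C498+LPS. Both groups with C498 were above both without, and NC and LPS nearly touched. Smad7 rose from 2.925 ± 0.474 TPM in NC to 9.27 ± 0.721 in C498, a ratio of 3.17 and a log2 change of 1.39 (adjusted p = 0.00656 by limma, standard error 0.207). With LPS present it rose from 2.26 ± 0.424 to 6.655 ± 1.1 TPM, a ratio of 2.94 and a log2 change of 1.23 (adjusted p = 0.00878). The LPS changes were -0.27 (adjusted p = 0.374, 0.038 after centring by gene length) and -0.43 (adjusted p = 0.203). In the same samples the fibroblast markers Col1a1, Col1a2, Col3a1, Pdgfra, Dcn and Lum summed to 633.1 to 750.0 TPM in C498 against 150.3 to 192.4 in NC, and their part in the rise of Smad7 was not tested. The call in C498 vs NC was lost without C498 replicate 1 (adjusted p = 0.0687), without C498 replicate 2 (0.0529) and in a fit of only the groups compared (0.0547), within a range of 0.00229 to 0.0687. The other was lost without LPS replicate 2 (adjusted p = 0.073) and without C498+LPS replicate 2 (0.0699), within a range of 0.00387 to 0.073.

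Of the response genes, Tgfbi fell in LPS vs NC, in C498+LPS vs C498 and in C498 vs NC, and Id1 and Id3 were called in no comparison. Tgfbi (ENSMUSG00000035493, chromosome 13 from 56609523 to 56639562) encodes a secreted matrix protein first found as a gene that TGF-beta induces. It was at 254.2 and 184.3 TPM in NC, 58.83 and 58.55 in LPS, 88.23 and 85.68 in C498, and 41.41 and 42.56 in C498+LPS. The 4 groups did not overlap, in the order NC, C498, LPS, C498+LPS. The mean fell from 219.2 ± 49.4 TPM to 58.69 ± 0.198 in LPS, 3.74 times lower, with a log2 change of -1.87 (adjusted p = 0.000176 by limma, standard error 0.147). C498 alone gave 86.96 ± 1.8 TPM, 2.52 times lower and a log2 change of -1.31 (adjusted p = 0.00216). Adding LPS to C498 took it to 41.98 ± 0.813 TPM, 2.07 times lower (log2 change -1.03, adjusted p = 0.00521), while C498+LPS vs LPS gave -0.47 (adjusted p = 0.0698). The call in C498+LPS vs C498 was lost without C498 replicate 1 (adjusted p = 0.0582) and without C498 replicate 2 (0.0527), and the change was under 2-fold with median centring (-0.82), quantile normalization (-0.96) and centring by gene length (-0.79). The adjusted p ranged from 0.00107 to 0.0582 over these and the other alternatives.

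Id1 (ENSMUSG00000042745, chromosome 2 from 152736251 to 152737410) and Id3 (ENSMUSG00000007872, chromosome 4 from 136143497 to 136145755) encode proteins that bind other helix-loop-helix factors and keep them from DNA, and both are classical targets of BMP signaling. Id1 was at 11.01 and 12.06 TPM in NC, 6.02 and 5.37 in LPS, 16.18 and 15.39 in C498, and 6.12 and 13.33 in C498+LPS. The C498+LPS pair differed more than any other and overlapped NC, and the other 3 groups were apart. The log2 change of Id1 was -0.91 in LPS vs NC (standard error 0.301, limma adjusted p = 0.0596) and -0.73 when LPS was added to C498 (adjusted p = 0.145). Which C498+LPS sample was kept decided the calls: without replicate 2, C498+LPS vs C498 was called at -1.24 (adjusted p = 0.0266, range 0.0266 to 0.473), and without replicate 1, C498+LPS vs LPS was called at 1.10 (adjusted p = 0.021, range 0.021 to 0.836).

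Id3 was at 45.73 and 42.25 TPM in NC, 26.64 and 30.09 in LPS, 56.21 and 53.17 in C498, and 28.50 and 33.29 in C498+LPS. Both groups without LPS were above both groups with LPS, and LPS overlapped C498+LPS. Mean levels of Id3 were 43.99 ± 2.46 TPM in NC against 28.37 ± 2.44 in LPS, 1.55 times lower (log2 change -0.62, standard error 0.124, limma adjusted p = 0.00984). With C498 they were 54.69 ± 2.15 and 30.89 ± 3.39 TPM, 1.77 times lower (log2 change -0.81, adjusted p = 0.00703). Both differences had an adjusted p under the threshold and a fold under 2, so Id3 was not called, and median centring took the first to -0.45 (adjusted p = 0.0642, range over its alternatives 0.00765 to 0.0728). C498 vs NC gave 0.31 (adjusted p = 0.136) and C498+LPS vs LPS 0.12 (adjusted p = 0.579).

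**Figure D3:**
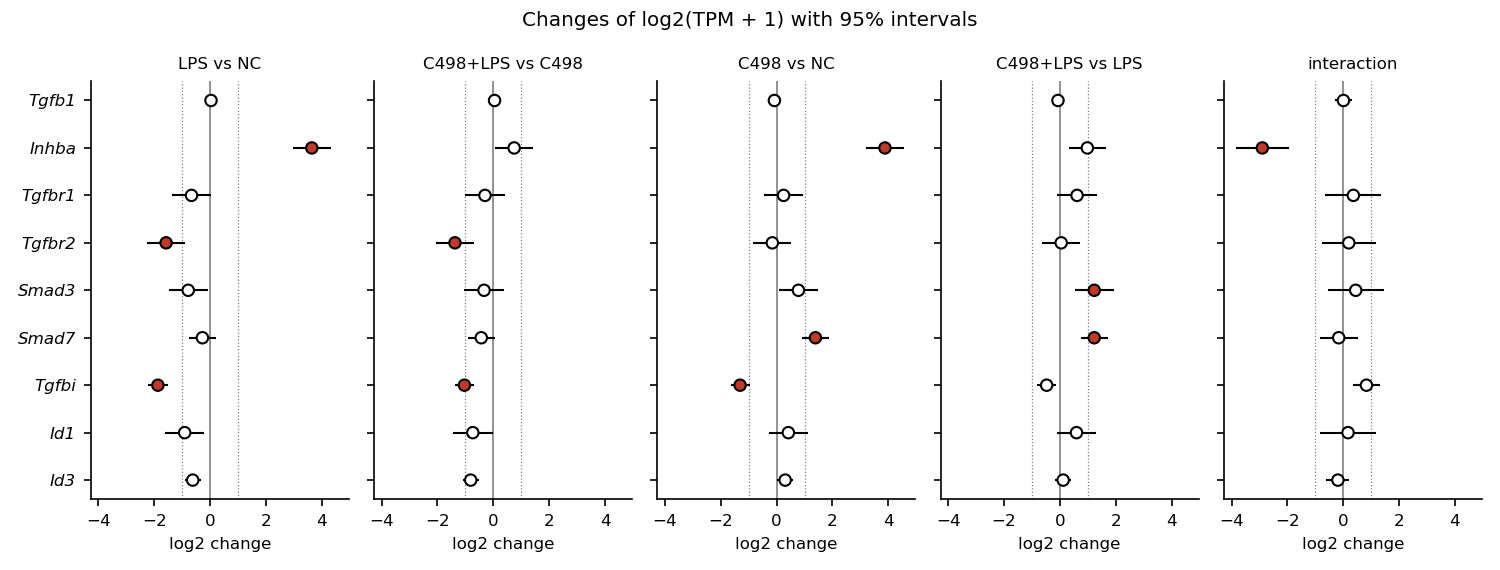
Change of log2(TPM + 1) of each gene (horizontal axis, log2 units) in the 4 comparisons and the interaction, with 95% intervals from limma as bars, filled points for called genes and dotted lines at a 2-fold change. Inhba is called higher in LPS vs NC and C498 vs NC and lower in the interaction, and Tgfb1 is near 0 in each panel.

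By comparison, LPS vs NC called 3 of the 9 genes (Inhba higher, Tgfbr2 and Tgfbi lower), against 12.2% of all tested genes (5.55% higher and 6.68% lower). C498+LPS vs C498 called 2 (Tgfbr2 and Tgfbi, lower), against 5.64% (2.52% higher and 3.13% lower). C498 vs NC called 3 (Inhba and Smad7 higher, Tgfbi lower), against 7.0% (5.64% higher and 1.36% lower). C498+LPS vs LPS called 2 (Smad3 and Smad7, higher), against 7.57% (5.39% higher and 2.18% lower). These shares moved when 1 sample was left out, to between 9.7% and 13.5% in LPS vs NC, 3.0% (without C498 replicate 1) and 5.91% in C498+LPS vs C498, 2.83% (without C498 replicate 1) and 11.3% (without NC replicate 1) in C498 vs NC, 3.86% (without LPS replicate 2) and 7.84% in C498+LPS vs LPS, and 0.0738% (without LPS replicate 1) and 0.755% (without NC replicate 1) for the interaction. Median centring changed the split of all calls from 677 higher and 814 lower to 853 and 530 in LPS vs NC, from 307 and 381 to 434 and 196 in C498+LPS vs C498, and from 687 and 166 to 565 and 269 in C498 vs NC. The median log2 change of the 9 genes was -0.66 in LPS vs NC, -0.43 for C498+LPS vs C498, 0.31 in C498 vs NC and 0.60 in C498+LPS vs LPS. Comparisons that share samples, such as LPS vs NC and C498 vs NC, are not independent of each other. Without NC replicate 2 the count in LPS vs NC was 5, the members with long transcripts Tgfbr1 and Smad3 being added, and C498+LPS vs C498 called 0 without either C498 sample and 1 without C498+LPS replicate 1. C498+LPS vs LPS called 0 without LPS replicate 2 or C498+LPS replicate 2, and 1 without LPS replicate 1 or either C498 sample. With median centring, which sets the shift of all genes to about 0, the calls in LPS vs NC were at 3.82 for Inhba, -1.40 for Tgfbr2 and -1.70 for Tgfbi.

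Around these 9 genes stand 8 lists of the pathway with 87 other genes, of which 63 were tested. In LPS vs NC, 8 of the 63 rose and 3 fell (17.5% against 12.2% of all tested genes, median log2 change 0.18), the latter being Ski, Nrros and Klf10, a response gene that encodes a transcription factor. In C498+LPS vs C498, limma called none higher and 2 lower (3.17% against 5.64%), with 9 higher and 5 lower at an unadjusted p under 0.05. The direction depended on scaling: with the 9 genes included, 0 were called higher and 4 lower, against 2 and 2 with median centring or centring by gene length and 1 and 2 with quantile normalization. In C498 vs NC 15 rose and 2 fell (27.0% against 7.0%, median 0.51), and in C498+LPS vs LPS 12 rose and 1 fell (20.6% against 7.57%, median 0.45). The 2 genes that fell in C498+LPS vs C498 were Ski, a SMAD corepressor, and Nrros, which anchors latent TGF-beta 1 on myeloid cells and is, like Klf10, named after its values were seen. Ski went from 30.35 ± 7.61 TPM in NC to 9.585 ± 2.18 in LPS (log2 change -1.56, limma adjusted p = 0.00181) and from 31.7 TPM in C498 to 15.3 in C498+LPS (-1.0, adjusted p = 0.0194). The second call was lost with median centring (-0.79), quantile normalization (-0.87) and centring by gene length (-0.81), with no filter, and without any 1 sample of those groups, within a range of adjusted p from 0.003 to 0.127. The call of Klf10 in LPS vs NC (-1.04) was lost under the same 3 scalings (-0.87 to -0.79), in a fit of only the groups compared, and without NC replicate 1 or LPS replicate 2. Klf10 rose in C498+LPS vs LPS (1.07, adjusted p = 0.0102), a call lost with those scalings (0.95 to 0.99) and without any 1 sample of LPS or C498+LPS (adjusted p up to 0.0834). Nrros was at 147.5 and 135.3 TPM in NC, 53.5 and 57.6 in LPS, 85.3 and 89.3 in C498, and 33.1 and 28.4 in C498+LPS, and it fell in both LPS comparisons (log2 changes -1.33 and -1.48, adjusted p = 0.000224 and 0.000351). Its C498 changes of -0.69 and -0.84 were under 2-fold. With the 9 genes included, 20 pathway genes were called in C498 vs NC, 11 without C498 replicate 1 and 13 without C498 replicate 2. C498+LPS vs LPS called 15 of them, 8 without LPS replicate 1, and 6 without LPS replicate 2 or C498+LPS replicate 2. C498+LPS vs C498 called 4, 1 without C498 replicate 1 and 2 without C498 replicate 2.

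Among the 9 tested ligand genes, Gdf15, a distant member of the family made under cellular stress, was the 1 called beside Inhba. Calls made up 22.2% of this list for LPS vs NC (12.2% of all tested genes) and 22.2% for C498 vs NC (7.0%). The share was 11.1% for C498+LPS vs LPS (7.57%), 0.0% for C498+LPS vs C498 (5.64%) and 22.2% for the interaction (0.468%). Gdf15 was at 37.4 and 41.4 TPM in NC, 138.8 and 137.5 in LPS, 359.2 and 288.8 in C498, and 298.8 and 261.1 in C498+LPS. Gdf15 rose in LPS vs NC (log2 change 1.79, limma adjusted p = 0.000129), in C498 vs NC (3.0, adjusted p = 3.94e-05) and in C498+LPS vs LPS (1.01, adjusted p = 0.00303). The last of these was under 2-fold with median centring (0.93), centring by gene length (0.98) and without C498+LPS replicate 1 (0.91). The interaction of Gdf15 was -1.99 (adjusted p = 0.0128), a call lost without LPS replicate 1 (adjusted p = 0.0891), without LPS replicate 2 (0.0611) and with no variance trend (0.0566), within a range of 0.00805 to 0.0891. Of the 11 tested receptors and coreceptors, Tgfbr3, a coreceptor that presents ligand, was called beside Tgfbr2. Tgfbr3 went from 0.745 ± 0.502 TPM in NC to 3.655 in C498 (log2 change 1.44, adjusted p = 0.0238) and from 0.735 ± 0.205 in LPS to 3.205 in C498+LPS (1.25, adjusted p = 0.0338). It was the 1 called in each C498 comparison, 9.09% of the list against 7.0% and 7.57% of all tested genes. Both calls of Tgfbr3 were lost with no filter, the first also without NC replicate 2 or either C498 sample and in a fit of only the groups compared, and the second without either LPS sample, either C498 sample or C498+LPS replicate 2, with adjusted p up to 0.125 and 0.168.

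Of the 7 tested SMAD genes, 2 were called in C498 vs NC and 2 in C498+LPS vs LPS. This was 28.6% in each, against 7.0% and 7.57% of all tested genes, and 0 were called in the LPS comparisons. The inhibitory Smad6 fell in C498 vs NC, where Smad7 rose. It was at 6.29 and 6.78 TPM in NC, 2.89 and 3.55 in LPS, 2.44 and 2.75 in C498, and 1.41 and 1.86 in C498+LPS, and the 4 groups did not overlap, in the order NC, LPS, C498, C498+LPS. The log2 change of Smad6 was -1.07 in C498 vs NC (limma, adjusted p = 0.0159) and -0.84 in LPS vs NC (adjusted p = 0.0198), under 2-fold. The call was lost without C498 replicate 1 (adjusted p = 0.102), without C498 replicate 2 (0.076) and in a fit of only the groups compared (0.07), within a range of 0.00852 to 0.102. SMAD6 acts mainly on the BMP branch of the family and SMAD7 on both branches.

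Several genes of the matrix are in the next lists, and they were higher in the C498 samples together with the fibroblast markers, whose part was not tested. For storage and release of latent TGF-beta, 3 of 10 tested genes rose in LPS vs NC, 4 in C498 vs NC and 2 when C498 was added to LPS, where 5.55%, 5.64% and 5.39% of all tested genes did. The 1 called when LPS was added to C498 was Nrros, lower. Itgb8, an integrin subunit that frees latent TGF-beta, went from 0.16 and 0.11 TPM in NC to 3.51 and 2.65 in LPS (log2 change 1.84, limma adjusted p = 0.00177). Thbs1, a matrix protein that can activate latent TGF-beta, was at 39.56 ± 23.1 TPM in NC, 104.9 ± 12.4 in LPS and 216.9 in C498, with log2 changes of 1.51 (adjusted p = 0.0155) and 2.55 (adjusted p = 0.00447), against 0.58 in C498+LPS vs LPS (adjusted p = 0.298). Lrrc32, which holds the latent form at the cell surface, rose in C498 vs NC (1.70, adjusted p = 0.00318) and was under 2-fold in C498+LPS vs LPS (0.81, adjusted p = 0.0389). Fbn1, a microfibril protein of the matrix, rose in both (1.92 and 1.19, adjusted p = 0.00641 and 0.0297). Of 4 tested extracellular antagonists, 2 rose in C498 vs NC (5.64% of all tested genes did) and 3 in C498+LPS vs LPS (5.39%). Fst, which encodes the activin-binding protein follistatin, went from 0.97 and 0.74 TPM in NC to 3.36 and 3.23 in C498 and from 1.67 and 1.11 in LPS to 3.69 and 6.62 in C498+LPS (log2 changes 1.21 and 1.33, adjusted p = 0.0311 and 0.0205). The related Fstl3 rose in C498+LPS vs LPS (1.02, adjusted p = 0.0473), and Dcn, a matrix proteoglycan that binds TGF-beta, rose by 1.99 and 2.13 (adjusted p = 0.000824 and 0.000804). The calls of Itgb8, Lrrc32 and Dcn were kept under every alternative in which they were tested. The call of Thbs1 was lost in LPS vs NC without NC replicate 2 or either LPS sample, with no filter and in a fit of only the groups compared (adjusted p up to 0.102 over all alternatives), and in C498 vs NC without either C498 sample and in a fit of only the groups compared (up to 0.0597). That of Fbn1 was lost in C498 vs NC without either C498 sample and in a fit of only the groups compared (up to 0.0655), and in C498+LPS vs LPS without any 1 sample of LPS, C498 or C498+LPS and with no filter (up to 0.182). That of Fst was lost in C498 vs NC without NC replicate 2, either LPS sample or either C498 sample, with no filter, with quantile normalization (0.94) and in a fit of only the groups compared (up to 0.147). In C498+LPS vs LPS it was lost without either LPS sample or C498+LPS replicate 2, with no filter and in a fit of only the groups compared (up to 0.127). That of Fstl3 was lost without either LPS sample, either C498 sample or C498+LPS replicate 2, with no filter, in a fit of only the groups compared and with a replicate block (up to 0.155), and with each of the 3 scalings (0.83 to 0.94).

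Among the 15 tested intracellular regulators the C498 comparisons called 1 each, 6.67% against 7.0% of all tested genes in C498 vs NC and 7.57% in C498+LPS vs LPS. These were Tgif1, a SMAD corepressor, in C498 vs NC (log2 change 1.0, limma adjusted p = 0.00168) and Pmepa1, a membrane adaptor that restrains SMAD signaling, in C498+LPS vs LPS (1.28, adjusted p = 0.00913). Tgif1 was under 2-fold with median centring (0.88), without NC replicate 2 (0.87) and without C498 replicate 1 (0.97), and the call of Pmepa1 was lost without LPS replicate 2 (adjusted p = 0.0662) and C498+LPS replicate 2 (0.0695). Of the 16 tested response genes, 4 rose and 2 fell in LPS vs NC, 6 rose and 2 fell in C498 vs NC, and 5 rose in C498+LPS vs LPS. Of all tested genes 5.55% rose and 6.68% fell in the first, 5.64% rose and 1.36% fell in the second, and 5.39% rose in the third. The cell cycle inhibitor Cdkn1a rose in LPS vs NC (1.41, adjusted p = 4.76e-05) and in C498 vs NC (1.95, adjusted p = 3.94e-05), with an interaction of -1.14 (adjusted p = 0.019), and the AP-1 subunit Junb rose in the same comparisons (1.04 and 1.68). The interaction call of Cdkn1a was lost without any 1 of the 6 samples of LPS, C498 and C498+LPS (adjusted p from 0.0591 to 0.102) and with no variance trend (0.0886), within a range of 0.00901 to 0.102. Junb in LPS vs NC was under 2-fold with quantile normalization (0.93) and without NC replicate 1 (0.98). Cdkn1a and Junb are also induced by other signals than TGF-beta, and both were under 2-fold in C498+LPS vs LPS (0.82 and 0.78). Ccn2, a response gene named here after its values were seen, rose in C498 vs NC (1.65, limma adjusted p = 0.00128) and in C498+LPS vs LPS (1.44, adjusted p = 0.00207). Both calls of Ccn2 were kept under every alternative, and the part of the fibroblast markers in its rise was not tested.

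In the list of genes that depend on TGF-beta in microglia, the macrophages of the brain, 4 of 8 genes were tested. Sparc, a matrix protein, rose with C498 by 1.86 and 2.20 on the log2 scale (limma adjusted p = 0.00168 and 0.00101), and P2ry13, a nucleotide receptor, fell from 3.615 ± 0.0495 to 0.5 TPM in C498 vs NC and from 5.67 ± 0.368 to 0.81 in C498+LPS vs LPS (adjusted p = 0.00426 and 0.00203). The KEGG TGF-beta signaling pathway of the deposited annotation held 95 genes, 8 of the members among them but not Tgfbi. Of its 55 other tested genes, 4 rose in LPS vs NC (Tnf, Ifng, Rbl1 and Thbs1), which is 7.27% against 5.55% of all tested genes, and 3 when LPS was added to C498 (Tnf, Ifng and Hamp), which is 5.45% against 2.52%. Tnf and Ifng encode inflammatory cytokines, Rbl1 a cell cycle regulator and Hamp the iron hormone hepcidin, and apart from Thbs1 they are named after their values were seen. In C498 vs NC 11 rose and 1 fell, with 5.64% of all tested genes higher and 1.36% lower, and in C498+LPS vs LPS 8 rose (14.5% against 5.39%).

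**Figure D4:**
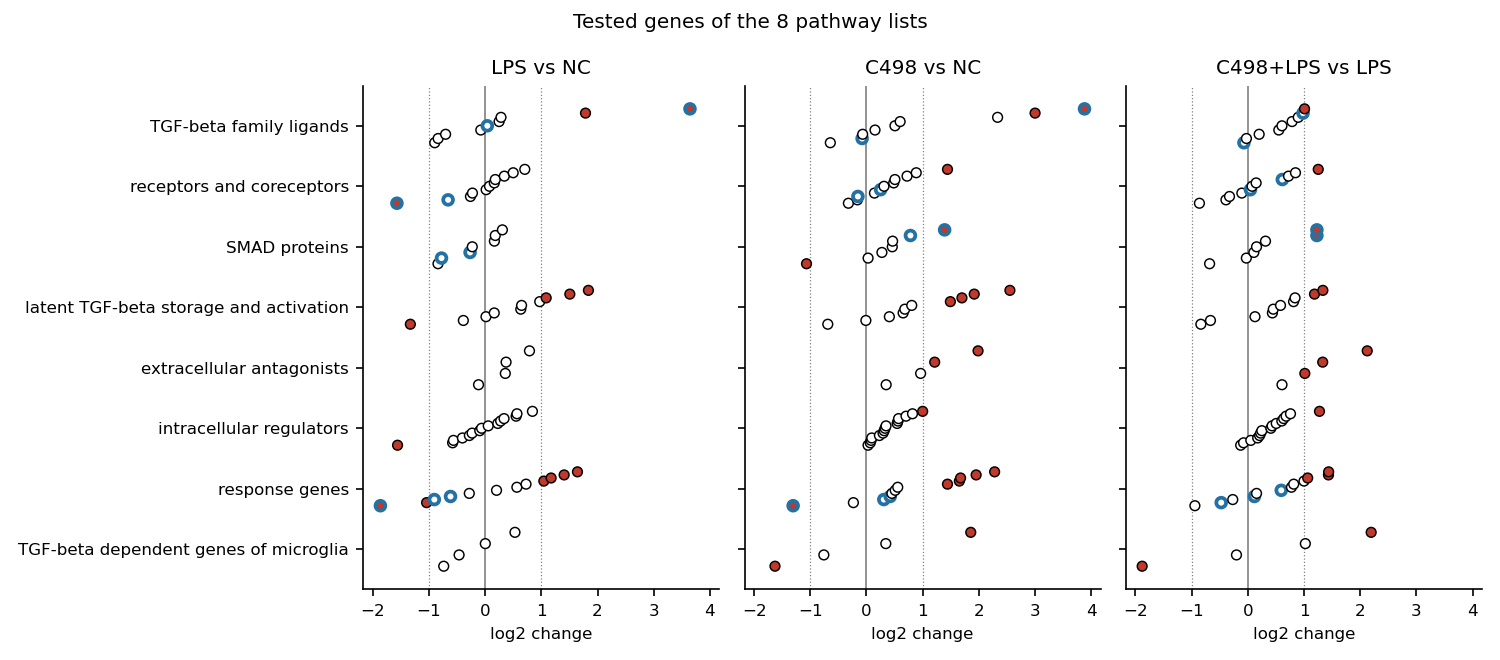
Log2 change (horizontal axis) of the 72 tested genes of the 8 pathway lists in 3 comparisons, with 1 point per gene, on the row of the first list that holds it, filled where called, a blue outline for the 9 genes and dotted lines at a 2-fold change. With C498 most called genes lie to the right, 17 higher and 3 lower in C498 vs NC, against 687 and 166 of all tested genes. With LPS they lie on both sides, 9 higher and 5 lower, against 677 and 814 of all tested genes.

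Markers of other cells moved with C498. The 6 fibroblast markers, of which 5 were tested and Lum was near 0, summed to 150.3 to 192.4 TPM in NC, 175.9 to 200.5 in LPS, 633.1 to 750.0 in C498 and 618.1 to 910.8 in C498+LPS. All 5 tested were called higher in C498 vs NC and 4 in C498+LPS vs LPS, while limma called none in the LPS comparisons, where 1 was higher at an unadjusted p under 0.05 in C498+LPS vs C498 and 0 in LPS vs NC. The 5 mesothelial markers summed to 4.66 to 5.58 TPM in NC and 14.81 to 20.91 in C498, with 2 called higher in each C498 comparison. Macrophage markers summed to 19850 to 20350 TPM in NC, 16590 to 17220 in LPS, 15250 to 15410 in C498 and 10630 to 12410 in C498+LPS. Lyz2 made up most of each sum, at a mean of 15990 TPM in NC and 11500 in C498. Of the 7 macrophage markers, all tested, 0 were called in LPS vs NC, C498 vs NC and C498+LPS vs LPS. In C498+LPS vs C498 1 was called lower, where 3.13% of all tested genes were. The matrix genes Dcn, Fbn1, Sparc and Thbs1 and the members Smad7, Smad3 and Inhba were higher in the same C498 samples, and the part of these cells in those results was not tested.
The remaining lists were low, with sums of 2.68 to 7.22 TPM for endothelial cells, 1.47 to 5.23 for T cells, 3.65 to 13.78 for B cells, 8.57 to 22.54 for mast cells and 0.6 to 2.12 for eosinophils. Neutrophil markers summed to 81.97 to 132.3 TPM in NC, 94.3 to 119.7 in LPS, 52.17 to 55.15 in C498 and 71.95 to 80.8 in C498+LPS. Elane was at 0, and S100a8 made up most of each sum, at a mean of 102.1 TPM in NC and 51.11 in C498. S100a9 and Ly6g, at 0 in both NC samples, reached 0.66 TPM in C498 replicate 1 and 2.62 TPM in C498 replicate 2. Of 2 tested neutrophil markers, 1 was called lower in C498 vs NC and 1 in C498+LPS vs LPS (1.36% and 2.18% of all tested genes were).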

How the data were processed

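RNA-seq was run on total RNA of 8 samples in 4 groups of 2. The authors used fastp for read filtering, HISAT2 for alignment, StringTie for assembly and RSEM for quantification; the genome build and tool versions are not given in the sources used here. The authors deposited TPM values with 2 decimals per gene and sample, beside their own group means, gene lengths and annotation. TPM keeps no depth, so counting error is unknown and the authors' count test (DESeq2) was not repeated. Coordinates are from GENCODE M21 (GRCm38), which holds 11874 (97.4%) of the tested genes, and promoters from RefSeq on GRCm38.p6.

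The test was limma (version 3.58.1, R 4.3.3) on log2(TPM + 1) for genes whose mean TPM was 1 or more, with a mean for each group, all 8 samples and a variance trend. Adding 1 makes the changes of low genes smaller. Thresholds were those of the study, a 2-fold change with p, adjusted by the Benjamini-Hochberg method over all tested genes, no higher than 0.05 in each of 5 comparisons. The steps were tested on simulated data. Members, lists and tests were chosen with earlier results of these data known. Genes named beside the members are up to 4 per list with the largest absolute log2 change among those called in any comparison, and for each member the 3 genes with the highest Pearson r over the samples. One gene that this rule names is not reported here. Figures used numpy 2.4.6, pandas 2.3.3 and matplotlib 3.10.9. Alternatives were a pseudocount of 0.1, no filter, a minimum of 5 TPM, median centring, quantile normalization, only the groups compared, no variance trend, a replicate block, no fold threshold and leaving out each sample; centring within 10 bins of gene length was added after the data were seen.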

Additional observations from a re-analysis of the deposited data

Results flagged for a closer look

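On the log2 scale the response of Inhba to LPS differed between cells with and without C498, by a test of the difference itself. The interaction was -2.90 on log2(TPM + 1) (limma, adjusted p = 0.0411). The log2 change was 3.65 in LPS vs NC and 0.75 when LPS was added to C498. As differences of mean TPM levels these responses were 81.08 and 72.43 TPM, which were not tested against each other. LPS and NC samples did not overlap, and both C498+LPS samples were above both C498 samples. The call was lost when any 1 of the 8 samples was left out (adjusted p up to 0.257). The C498 samples, at 113.3 and 90.1 TPM, were already at the level of the LPS samples, at 102.9 and 71.4 TPM. With 2 samples per group no sample could be tested as lying apart from its group.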

How the results depend on the processing

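Of 751 log2 changes recomputed for the 9 genes, 688 kept their direction and their call, which needs both the fold and the adjusted p, 34 lost a call, 7 gained one and 22 changed sign, and of 178 counts 134 stayed within 1.5 times. The 45 called changes of other pathway genes were recomputed 752 times, of which 122 lost the call and 0 changed sign, and 22 of the 45 were called under every alternative. Where values moved, the cause was not tested. A count of genes was moved from the reported one as follows. In C498+LPS vs C498, 1 of the 9 genes was called with no filter, median centring, quantile normalization or length-bin centring in place of 2, and pathway genes went from 4 to 2 with no filter and 9 with no fold threshold. In C498+LPS vs LPS the members went from 2 to 1 with no filter and with a minimum of 5 TPM, where Smad3 was not tested, and pathway genes from 15 to 9 with no filter and 25 with no fold threshold. The interaction called 0 members with no filter or no variance trend in place of 1, and 0 pathway genes with no variance trend and 5 with length-bin centring in place of 3. Pathway genes went from 14 to 23 in LPS vs NC with no fold threshold and from 20 to 13 in C498 vs NC with only the groups compared.

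Leaving out each sample gave 2 to 5 members and 11 to 17 pathway genes in LPS vs NC, 0 to 2 and 1 to 4 in C498+LPS vs C498, 2 to 4 and 11 to 25 in C498 vs NC, 0 to 2 and 6 to 15 in C498+LPS vs LPS, and 0 to 1 and 0 to 4 in the interaction. Signs turned for values that were not called. Leaving out a sample gave, for Tgfb1, -0.030 to 0.11 in LPS vs NC, -0.023 to 0.12 in C498+LPS vs C498 and -0.061 to 0.078 in the interaction. For Tgfbr1 it gave -0.18 to 0.69 in C498 vs NC and -0.072 to 0.80 in the interaction, and for Id1 -0.33 to 0.68 in the interaction. For Tgfbr2 it gave -0.62 to 0.31 in C498 vs NC, -0.14 to 0.23 in C498+LPS vs LPS and -0.27 to 0.67 in the interaction. Length-bin centring gave -0.021 for Tgfbr1 in C498 vs NC, 0.038 for Smad7 in LPS vs NC, -0.024 for Tgfb1 in the interaction and -0.095 for Tgfbr2 in C498+LPS vs LPS, where median centring gave -0.030 and quantile normalization -0.053. Quantile normalization gave, for Tgfb1, -0.0046 in C498+LPS vs C498, 0.019 in C498+LPS vs LPS and -0.11 in LPS vs NC.

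The replicate numbers are not known to pair samples: deviations of same-numbered samples correlated at 0.0397 to 0.168 between groups. With the replicate block the counts were 3, 2, 3, 2 and 1 members and 14, 4, 20, 15 and 3 pathway genes in the order LPS vs NC, LPS added to C498, C498 vs NC, C498 added to LPS and the interaction, and no call of a member changed. The interaction of Inhba then had an adjusted p of 0.00142. TPM values keep no read numbers, which limits what can be said of low genes such as Smad3.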

Other observations

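The genes whose log2(TPM + 1) over the 8 samples was most like that of a member are given by Pearson's r, as a description of 8 points that form 4 groups. For Inhba they were Sptlc2 (0.997), Pim1 (0.994) and Rasgef1b (0.994). For Tgfbr2 they were Cpt1a (0.994), Parn (0.993) and Nisch (0.992), and for Tgfbr1 Ssh2 (0.993), Dennd11 (0.982) and Epb41l2 (0.978). For Smad3 they were Serinc5 (0.995), Ripor1 (0.991) and Pdia3 (0.990), and for Smad7 Gtse1 (0.995), Mical2 (0.994) and Cdh3 (0.991). For Tgfbi they were 2610507I01Rik (0.997), Aatk (0.994) and Sumf2 (0.993). For Id1 they were Gas1 (0.972), Mcm2 (0.961) and Pck2 (0.958), and for Id3 Gemin2 (0.984), Tubgcp2 (0.980) and Tvp23b (0.978). For Tgfb1, which hardly varied, they were Stfa3 at 0.968, Dcun1d5 at 0.907 and Trp53rkb at 0.883.

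Bmp4, a ligand of the BMP branch named here after its values were seen, was at 23.3 TPM in C498 replicate 1 and at 0.36 TPM in C498 replicate 2, and at or below 0.77 TPM in the other 6 samples. Its C498 vs NC log2 change of 2.33 had a standard error of 1.13 and did not pass the test (limma, adjusted p = 0.203). The activin receptor genes Acvr1b and Acvr2a, named here likewise, were at 12.8 to 28.0 TPM and 1.32 to 2.49 TPM over the 8 samples, and neither was called in any comparison.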
